A study of Homo sapiens with 16 samples.

Results

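The human mitochondrial ribosomal protein genes were taken as the protein-coding genes of the GENCODE 29 annotation whose symbol is MRPL or MRPS followed by a number and an optional letter. The annotation holds 78 such genes, 49 named for the large ribosomal subunit (MRPL) and 29 for the small one (MRPS), and 76 of them had transcripts among the 31496 genes into which the deposited table was summed. The RNA of MRPL45 and MRPS21 is not analysed here, though the search of start regions below drew on all 78 symbols. All 76 passed the filter on low counts, so 48 large subunit genes and 28 small subunit genes were tested among 19836 genes.

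The RNA came from HCT116, an established colon cancer cell line, and polyadenylated RNA was sequenced strand-specifically. Knockdown was by CRISPR interference, in which a guide RNA brings a repressor to the start of a gene, and was switched on with 0.5 µg/ml doxycycline. The target was NORAD, a long noncoding RNA that the study links to a topoisomerase complex and to genome stability, and the comparison asks what changes when it is depleted. The 16 libraries form 6 groups, with 2 libraries labelled knockdown (KD) and 2 labelled wild type (WT) at 24 h, 3 KD and 3 WT at 48 h, and 3 KD and 3 WT at 96 h. The labels give the same doxycycline text for all 16 samples and do not say whether WT cells received it, carried the repressor or a control guide, or which guides were used. They do not say either whether the libraries of a group are separate cultures, and a p-value here then reflects differences between libraries that may be technical.

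Mitochondria keep their own ribosome, the mitoribosome, which translates the few messenger RNAs of mitochondrial DNA into core subunits of the respiratory chain and ATP synthase. Its ribosomal RNAs are transcribed inside the organelle, whereas all of its proteins are encoded in the nucleus, made in the cytosol and imported. The large subunit forms peptide bonds and holds the exit tunnel, and the small subunit binds the messenger RNA. Many mitoribosomal proteins have bacterial counterparts and others exist only in mitochondria. MRPS36 is counted here by its symbol, although its product has been assigned to the 2-oxoglutarate dehydrogenase complex, and the product of MRPS18A sits in the large subunit.

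NORAD itself (ENSG00000260032, chr20:36045622-36050960, minus strand, GRCh38) was examined first as a check of the labels. At 24 h it had 229.6 and 188 CPM (counts relative to the library's total, scaled by TMM, the trimmed mean of M values) in the libraries labelled knockdown, against 179 and 201 CPM in WT libraries, and it was not lower (log2 fold change 0.14, SE 0.117, edgeR adjusted p = 0.523). At 48 h it had 21.8, 18.1 and 24.8 CPM in KD libraries, against 156, 155 and 162 CPM in WT libraries (-2.88, SE 0.105, edgeR adjusted p = 1.27e-13). At 96 h it had 79.8, 72.6 and 66.1 CPM in KD libraries, against 181, 184 and 183 CPM in WT libraries (-1.33, SE 0.098, edgeR adjusted p = 5.25e-08). The 24 h groups overlapped and the later groups did not, so the 24 h comparison below is between libraries labelled knockdown and WT libraries, without a measured fall of the target.

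Library totals ran between 28391784 and 51853876 estimated counts. The epithelial markers EPCAM, KRT8, KRT18 and KRT19 ran from 118 to 3610.2 TPM (CPM corrected for transcript length) and CDH1 from 13.9 to 47.9 TPM. Of the intestinal markers CDX2 ran from 7.04 to 13.1 TPM while CDX1 and VIL1 stayed at or under 0.215 TPM, and the tested leukocyte, endothelial and erythroid markers were at or under 1.65 TPM. Of the fibroblast markers COL1A1 was at 7.44 to 43.4 TPM, while COL1A2 and PDGFRB were at or under 0.470 TPM. The share of counts in mitochondrially encoded genes moved with the KD label at the first 2 times. It was 6.08% and 6.10% in the libraries labelled knockdown, against 4.89% and 5.05% in WT libraries at 24 h, and 12.3% to 13.8% in KD libraries, against 10.4% to 11.1% in WT libraries at 48 h. Transcripts annotated as retained introns held 5.58% and 6.04% in the libraries labelled knockdown, against 5.17% and 4.93% in WT libraries at 24 h. At 48 h they held 5.73%, 5.29% and 4.18% in KD libraries, against 4.05% to 4.26% in WT libraries, so KD replicate 3 stood apart from its group. At 96 h both shares overlapped between the groups. The part of these shares in the results below was not tested.

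Together the 76 genes made up a smaller share of the RNA in the libraries labelled knockdown at 24 h and in KD libraries at 48 h, and the gap was narrower at 96 h. Their summed level was 4166 and 4564 CPM of matched counts in the libraries labelled knockdown, against 5049.8 and 5149 in WT libraries at 24 h. It was 5114, 5444 and 5200.4 in KD libraries, against 6279, 6266 and 6196 in WT libraries at 48 h, and 4160.2, 4375 and 4161 in KD libraries, against 4580.3, 4575 and 4359.6 in WT libraries at 96 h. At 24 and 48 h the highest KD library lay below the lowest WT library, and at 96 h KD replicate 2 lay above WT replicate 3. These sums are not scaled by TMM, so they move with the share of all other RNA. In bulk RNA, fewer cells with a given level and less RNA per cell cannot be told apart.

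**Figure D1:**
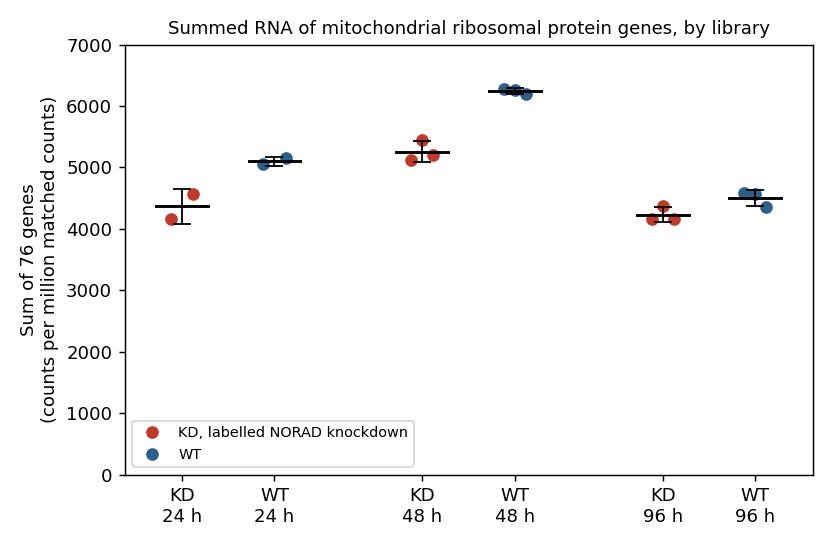
The plot of summed levels by library shows the 76 genes together in CPM of matched counts on the vertical axis, with 1 point per library, the KD group left of the WT group at each time, a line at the mean and bars of 1 SD. The KD means were 4365, 5253 and 4232 at 24, 48 and 96 h, against 5099.6, 6247 and 4505 in WT libraries.

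Levels of single members differed widely. Mean TPM over the 16 libraries, computed here from annotated transcript lengths, had a median of 62.9 over the 76 genes, with 39.6 and 92.2 at the quartiles, and the highest was 19.7 times the lowest. The highest were MRPL12, a protein of the flexible stalk that recruits translation factors, at 194 ± 47.3 TPM (SD, n = 16), and MRPL52, a mitochondria-specific protein of the large subunit, at 155 ± 37.5 TPM. The lowest were MRPL50, another mitochondria-specific protein of the large subunit, at 9.85 ± 2.36 TPM and MRPL30, at 13.7 ± 5.53 TPM. MRPL12 and MRPL52 overlapped in range over the libraries (140 to 270.5 TPM and 108 to 221 TPM), as did MRPL50 and MRPL30 (6.401 to 14.4 TPM and 3.52 to 22.2 TPM).

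At 24 h, 65 of the 76 genes were lower in the libraries labelled knockdown, 0 were higher and 11 did not pass. Of all tested genes 12.4% were lower and 5.14% higher by the same rule, an edgeR quasi-likelihood test with Benjamini-Hochberg adjusted p under 0.05. The median log2 fold change of the members was -0.44, beside -0.02 over all tested genes, and 75 of 76 values were negative. Lower levels were found in 40 of 48 large subunit genes and in 25 of 28 small subunit genes, with the same median of -0.44 in both.

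In the large subunit the furthest falls at 24 h were of MRPL11, MRPL39, MRPL4 and MRPL18. MRPL11 (ENSG00000174547, chr11:66435075-66466738, minus strand), at the base of the factor-binding stalk, had 46.3 and 50.5 CPM in the libraries labelled knockdown, against 86.9 and 84.3 CPM in WT libraries (log2 fold change -0.82, SE 0.099, edgeR adjusted p = 1.26e-05). MRPL39 (ENSG00000154719, chr21:25585656-25607517, minus strand), a mitochondria-specific protein, had 16.8 and 17.2 CPM in the libraries labelled knockdown, against 26.6 and 29.03 CPM in WT libraries (-0.71, SE 0.134, edgeR adjusted p = 8.80e-04). The groups did not overlap, with MRPL11 at 56.6% and MRPL39 at 61.0% of WT. MRPL4 (ENSG00000105364, chr19:10251901-10260045, plus strand), which lines the exit tunnel, had 85.9 and 89.9 CPM in the libraries labelled knockdown, against 143 and 141 CPM in WT libraries (-0.69, SE 0.103, edgeR adjusted p = 1.12e-04). MRPL18 (ENSG00000112110, chr6:159789812-159798436, plus strand), a protein of the central protuberance, had 39.4 and 43.8 CPM in the libraries labelled knockdown, against 63.5 and 68.4 CPM in WT libraries (-0.66, SE 0.093, edgeR adjusted p = 6.02e-05).

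In the small subunit MRPS18B fell furthest at 24 h. MRPS18B (ENSG00000204568, chr6:30617709-30626395, plus strand), 1 of the 3 human relatives of a single bacterial protein, had 72.1 and 73.8 CPM in the libraries labelled knockdown, against 118 and 116 CPM in WT libraries (-0.68, SE 0.099, edgeR adjusted p = 8.51e-05). Its relatives are named here after their values were seen. MRPS18C was lower (-0.40, SE 0.108, edgeR adjusted p = 0.0122), and MRPS18A had 56.5 and 60.0 CPM in the libraries labelled knockdown, against 66.9 and 67.1 CPM in WT libraries, which did not pass (-0.20, SE 0.104, edgeR adjusted p = 0.221). The difference among the 3 was not tested.

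The 24 h count rested on few libraries and on the scaling. It was 31 without KD replicate 2 (4.48% of all genes lower), 35 without KD replicate 1 (6.59%) and 39 without WT replicate 2 of 24 h (6.18%), while scaling by total counts gave 27 lower members (4.08% of all genes), scaling by the upper quartile 42 (7.51%) and abundance-dependent scaling 40 (6.997%). The first and second of these move all genes alike, by which the median of all genes came to 0.19 and 0.10, beside -0.02 under TMM. Relative to the median of all genes the members' median was -0.42 under TMM and -0.29 under abundance-dependent scaling, which can change that difference.

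At 48 h, when NORAD was at 13.6% of WT, 63 of the 76 genes were lower in KD libraries, 0 were higher and 13 did not pass, where 18.5% of all tested genes were lower and 14.8% higher. The members' median log2 fold change was -0.37, beside 0.06 over all tested genes, and 74 of 76 values were negative. Lower levels were found in 40 of 48 large subunit genes and 23 of 28 small subunit genes, with medians of -0.34 and -0.39. Without KD replicate 3 the count was again 63 and the median -0.38, while the share of all genes that were lower was 23.9%. Abundance-dependent scaling gave 40 lower members (14.2% of all genes), with the members' median at -0.26 relative to that of all genes, against -0.43 under TMM. Scaling by total counts or by the upper quartile moved the median of all genes to 0.20 and 0.18.

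MRPL3, MRPL15 and MRPL12 of the large subunit and MRPS34 and MRPS28 of the small subunit fell furthest at 48 h. MRPL3 (ENSG00000114686, chr3:131462212-131502983, minus strand), which reaches towards the catalytic centre, had 67.6, 74.98 and 81.0 CPM in KD libraries, against 132, 121 and 133 CPM in WT libraries (log2 fold change -0.79, SE 0.083, edgeR adjusted p = 5.74e-07). MRPL15, a protein of the large subunit core, had 34.2, 36.2 and 39.1 CPM in KD libraries, against 64.8, 60.7 and 61.1 CPM in WT libraries (-0.77, SE 0.072, edgeR adjusted p = 1.43e-07). MRPL12 (ENSG00000262814, chr17:81703357-81707526, plus strand), the stalk protein, which has also been found bound to the mitochondrial RNA polymerase, had 151, 182 and 163 CPM in KD libraries, against 271, 266 and 266 CPM in WT libraries (-0.69, SE 0.078, edgeR adjusted p = 1.20e-06). In each of these genes the highest KD library was well below the lowest WT library. MRPS34 (ENSG00000074071, chr16:1771890-1773155, minus strand), a mitochondria-specific protein needed for small subunit stability, had 85.4, 105 and 99.0 CPM in KD libraries, against 162, 166 and 151 CPM in WT libraries (-0.72, SE 0.079, edgeR adjusted p = 9.19e-07). MRPS28, on the messenger RNA side of the small subunit, had 29.99, 32.5 and 33.2 CPM in KD libraries, against 52.1, 54.6 and 51.2 CPM in WT libraries (-0.72, SE 0.070, edgeR adjusted p = 1.87e-07). MRPL12 and MRPS28 overlap other genes annotated on the same strand (AC139530.2 and AC036214.3), and the authors' counting could divide reads between them.

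**Figure D2:**
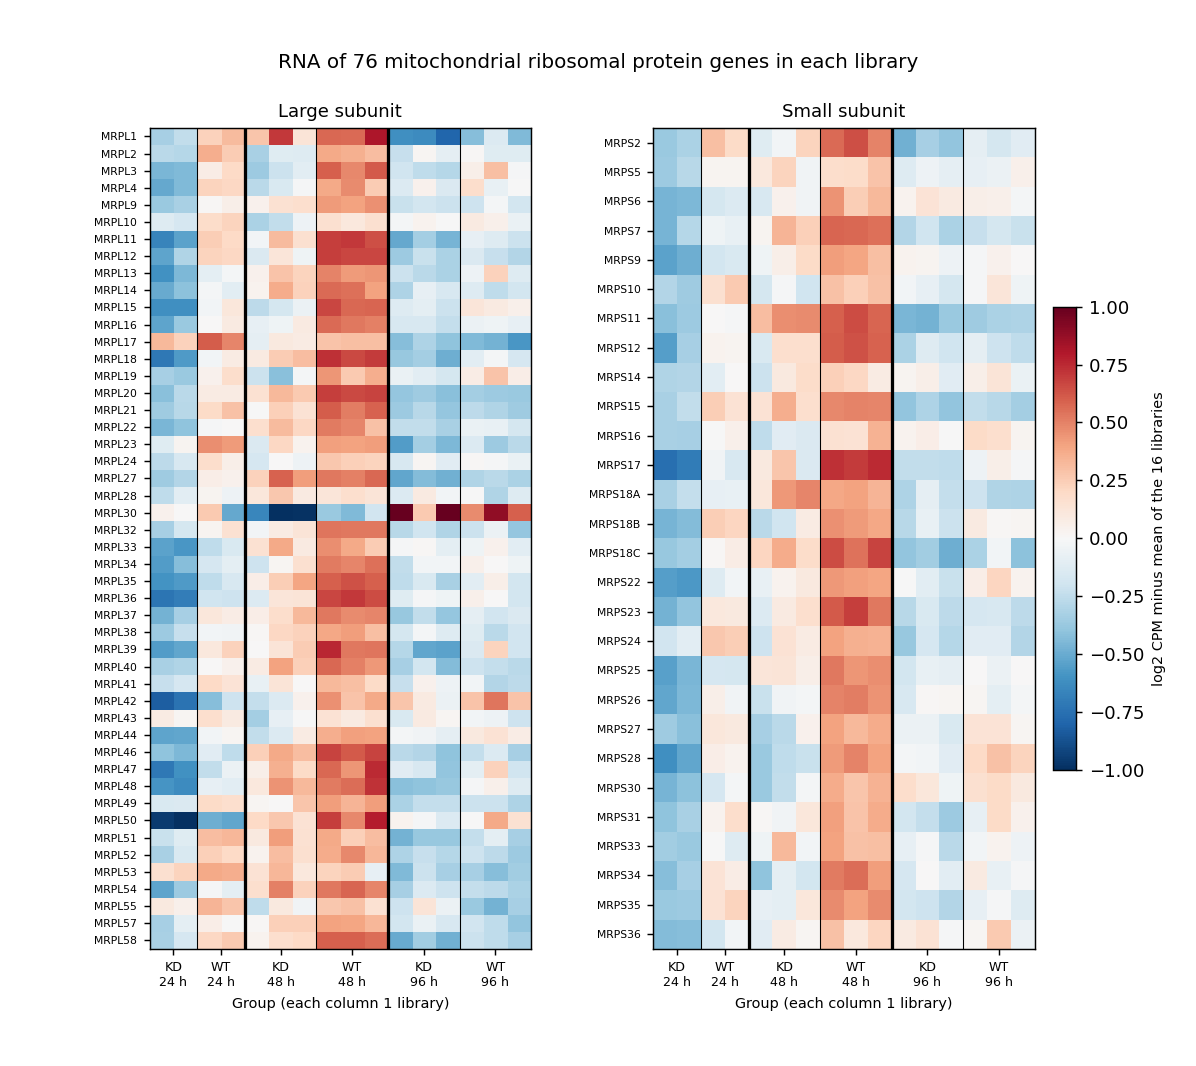
The map of levels by library shows each of the 76 genes as a row and each library as a column, with log2 CPM minus the gene's mean over the 16 libraries in colour, which saturates at 1 in either direction. KD columns stand left of WT columns at each time, and most rows are reddest in the WT libraries of 48 h and bluest in the libraries labelled knockdown of 24 h, while MRPL30 is highest at 96 h.

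The 24 h and 48 h comparisons share no library. In both, 59 genes were lower, and the share of all tested genes that were lower in both was not computed. Another 6 passed at 24 h alone, namely MRPL1, MRPL27, MRPL33, MRPL51, MRPS5 and MRPS36, and 4 passed at 48 h alone, namely MRPL38, MRPL43, MRPL46 and MRPL55. The 7 genes that passed at neither time were MRPL28, MRPL30, MRPL53, MRPL57, MRPS14, MRPS18A and MRPS33. Passing at 1 time and missing at the other does not show that the effects differ between the times. The members that missed at both times had a median of 37.4 TPM, and 6 of the 7 were below the median of all members. MRPL30 had a wide spread between libraries, with 8.40, 5.02 and 6.68 CPM in KD libraries, against 10.2, 9.73 and 11.6 CPM in WT libraries at 48 h (-0.65, SE 0.257, edgeR adjusted p = 0.0720). MRPL28, MRPL30 and MRPL53 also overlap other genes on the same strand.

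At 96 h, with NORAD at 39.9% of WT, 10 of the 76 genes were lower in KD libraries, 1 was higher and 65 did not pass, where 5.15% of all tested genes were lower and 5.35% higher. The members' median log2 fold change was -0.09, beside -0.01 over all tested genes, and 61 of 76 values were negative. The 10 genes were MRPL3, MRPL11, MRPL13, MRPL15, MRPL18, MRPL39, MRPL48, MRPS2, MRPS28 and MRPS31. All 10 were also lower at 24 h and at 48 h, as were 59 of the 76 members.

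MRPL39 had 20.3, 17.2 and 17.0 CPM in KD libraries, against 22.3, 28.8 and 21.6 CPM in WT libraries at 96 h (log2 fold change -0.42, SE 0.108, edgeR adjusted p = 0.0137). MRPL48 (ENSG00000175581, chr11:73787316-73865133, plus strand), a protein of the central protuberance, had 21.6, 21.7 and 22.2 CPM in KD libraries, against 28.6, 29.9 and 26.4 CPM in WT libraries (-0.37, SE 0.086, edgeR adjusted p = 0.00627). MRPL3 had 75.7, 73.1 and 71.4 CPM in KD libraries, against 90.8, 107 and 86.3 CPM in WT libraries (-0.37, SE 0.083, edgeR adjusted p = 0.00492). In these genes, too, the KD and WT libraries did not overlap. MRPS31 (ENSG00000102738, chr13:40729135-40771173, minus strand), a mitochondria-specific protein of the small subunit, had 18.2, 17.5 and 16.1 CPM in KD libraries, against 19.6, 23.7 and 21.4 CPM in WT libraries (-0.32, SE 0.087, edgeR adjusted p = 0.0197). MRPL18 had 49.7, 51.2 and 46.2 CPM in KD libraries, against 60.2, 63.8 and 57.7 CPM in WT libraries (-0.30, SE 0.075, edgeR adjusted p = 0.00946).

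MRPL55 (ENSG00000162910, chr1:228106679-228109312, minus strand), a mitochondria-specific protein of the large subunit, was the member that was higher at 96 h. It had 39.6, 49.8 and 43.8 CPM in KD libraries, against 35.4, 32.98 and 36.3 CPM in WT libraries (log2 fold change 0.35, SE 0.091, edgeR adjusted p = 0.0151), while at 48 h it had 38.4, 48.9 and 44.6 CPM in KD libraries, against 55.0, 56.1 and 50.8 CPM in WT libraries (-0.30, SE 0.091, edgeR adjusted p = 0.0162). KD libraries ran from 38.4 to 49.8 CPM over both times, and every WT library of 96 h lay below every WT library of 48 h.

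The 96 h counts rested on single libraries. Lower members numbered 2 without KD replicate 3 (2.96% of all genes lower) or WT replicate 2 of 96 h (3.21%), and 6 without KD replicate 2 of 96 h (3.53%). They numbered 18 without KD replicate 3 of 48 h (7.61%), whose removal changed the estimated spread and not the libraries compared, and 18 when only the 96 h libraries were fitted (8.66%). MRPL39 lost its call without KD replicate 2, KD replicate 3 or WT replicate 2 of 96 h, MRPS31 without any of these or WT replicate 3, MRPL18 without KD replicate 3 or WT replicate 2, MRPL3 without WT replicate 2, and MRPL55 without KD replicate 2 or WT replicate 2. MRPL48 kept its call without each library in turn.

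**Figure D3:**
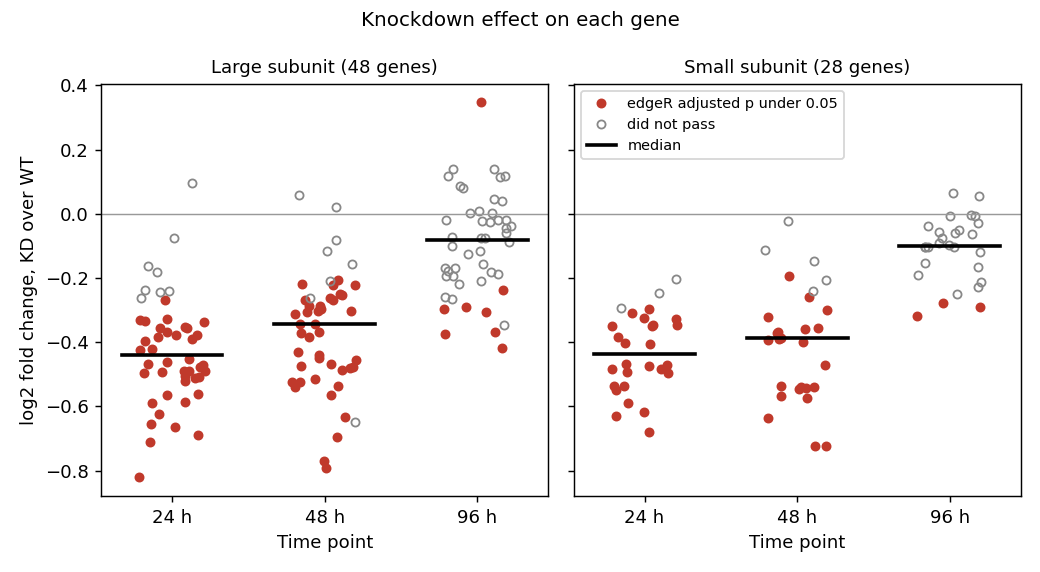
The plot of effects by time shows the log2 fold change of KD over WT for each of the 48 large and 28 small subunit genes at 24, 48 and 96 h, filled where the edgeR adjusted p was under 0.05, with a line at the median. Medians of the large subunit were -0.44, -0.34 and -0.08 and those of the small subunit -0.44, -0.39 and -0.10, and the single filled point above 0 is MRPL55.

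The change of the effect was tested directly. Between 48 h and 96 h, 23 members had a log2 fold change of KD over WT that was higher at 96 h (closer to 0 or above it) and 0 had a lower one, where 6.74% of all tested genes had a higher and 4.2% a lower one. All 23 were lower at 48 h, a comparison that uses the same 48 h libraries. The median difference was 0.27 over the members, beside -0.04 over all tested genes. A test for any difference among the 3 times passed for 22 members, with 9.44% of all tested genes passing. Both counts moved with single libraries, as did the shares of all genes. Without KD replicate 3 of 48 h they were 39 and 45, beside 15.7% and 25.4% of all genes. Without KD replicate 2 of 96 h they were 15 and 10 (3.86% and 5.31%), and without WT replicate 3 of 96 h 15 and 12 (4.19% and 5.81%). Without WT replicate 2 of 48 h the second was 12 (5.34%).

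The largest differences that passed were in MRPL55, MRPS34 and MRPL12. MRPL55 differed by 0.64 (SE 0.129, edgeR adjusted p = 0.00276). MRPS34 had 100.3, 113 and 105 CPM in KD libraries, against 119.9, 107 and 112 CPM in WT libraries at 96 h, so the groups overlapped there, and the effect differed from that at 48 h by 0.63 (SE 0.111, edgeR adjusted p = 0.00106). MRPL12 had 130.4, 144 and 135 CPM in KD libraries, against 151, 143 and 136 CPM in WT libraries at 96 h (log2 fold change -0.08, SE 0.078, edgeR adjusted p = 0.672), a difference of 0.62 from the 48 h effect (SE 0.110, edgeR adjusted p = 0.00111). For MRPL39 the difference was 0.06 (SE 0.151, edgeR adjusted p = 0.843), which did not pass.

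**Figure D4:**
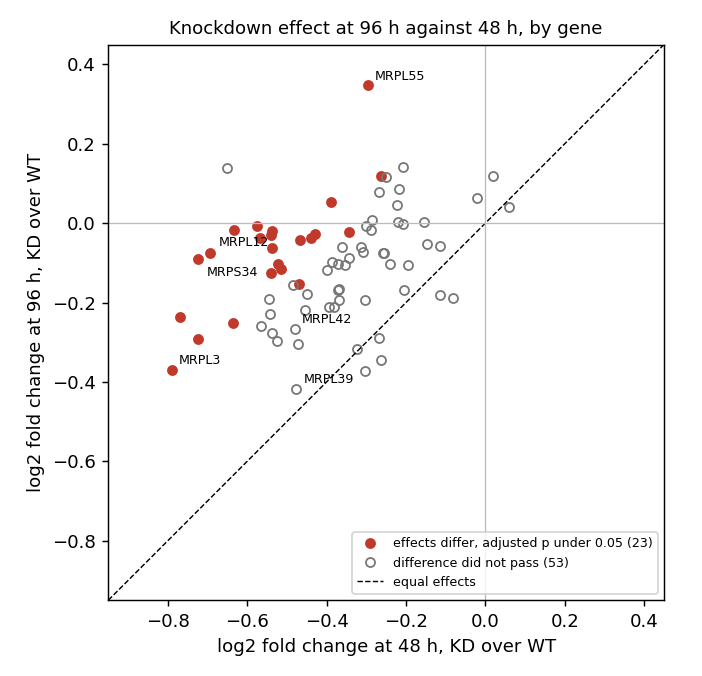
The plot of effects at 96 h against 48 h shows 1 point per gene, with the log2 fold change of KD over WT at 48 h on the horizontal axis and at 96 h on the vertical axis, and a dashed line where both are equal. The 23 filled genes, whose difference passed, all lie above the line, with MRPL55 at -0.30 and 0.35.

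WT cells changed along the time course as well, which sets what the KD libraries are compared with. At 48 h against 24 h, 55 of the 76 genes were higher, 1 was lower and 20 did not pass, with a median log2 fold change of 0.40, where 22.5% of all tested genes were higher and 22.1% lower. At 96 h against 48 h, 1 gene was higher, 68 were lower and 7 did not pass, with a median of -0.54, where 23.7% of all tested genes were higher and 22.7% lower. Both comparisons use the WT libraries of 48 h. The labels do not say how the times were grown or sequenced, so time cannot be told apart from any batch that goes with it, and the 24 h groups have 2 libraries each.

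MRPL50 had 19.7 and 19.2 CPM at 24 h, 44.5, 38.6 and 47.6 CPM at 48 h and 27.5, 35.9 and 30.7 CPM at 96 h in WT libraries, a rise of 1.16 on the log2 scale by 48 h (SE 0.112, edgeR adjusted p = 3.74e-08). MRPL36, a small protein of the large subunit with a bacterial counterpart, had 46.0 and 45.7 CPM at 24 h, 83.9, 86.3 and 82.8 CPM at 48 h and 54.8, 52.8 and 46.4 CPM at 96 h (0.88, SE 0.091, edgeR adjusted p = 1.06e-07). MRPL46, a protein of the central protuberance that overlaps AC013489.1, had 26.4 and 23.8 CPM at 24 h, 45.5, 43.6 and 45.5 CPM at 48 h and 24.2, 25.9 and 22.7 CPM at 96 h (0.84, SE 0.087, edgeR adjusted p = 1.12e-07). All 3 genes peaked at 48 h, and each WT library of 48 h was above those of the other times. MRPL17, a large subunit protein with a bacterial counterpart, went the other way, with 124 and 114 CPM at 24 h, 99.0, 100.0 and 100.2 CPM at 48 h and 59.9, 58.7 and 54.5 CPM at 96 h (-0.25 from 24 to 48 h, SE 0.078, edgeR adjusted p = 0.0115).

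The furthest WT falls between 48 and 96 h were of MRPL20, MRPL1 and MRPS11. MRPL20, which takes part in large subunit folding in bacteria, had 94.9 and 94.7 CPM at 24 h, 145, 142 and 143 CPM at 48 h and 70.8, 69.7 and 69.2 CPM at 96 h in WT libraries (-1.04 from 48 to 96 h, SE 0.065, edgeR adjusted p = 7.58e-11). MRPL1, of the mobile stalk beside the tRNA exit site, had 49.8 and 52.6 CPM at 24 h, 63.1, 62.7 and 74.3 CPM at 48 h and 31.5, 38.4 and 31.2 CPM at 96 h (-0.99, SE 0.123, edgeR adjusted p = 2.80e-06). MRPS11, on the platform of the small subunit, had 40.7 and 40.3 CPM at 24 h, 61.5, 63.8 and 60.9 CPM at 48 h and 31.8, 32.6 and 32.8 CPM at 96 h (-0.94, SE 0.068, edgeR adjusted p = 5.55e-10). In these genes all WT libraries of 96 h lay below those of both earlier times. MRPL30 was the single member that was higher, with 15.9 and 9.25 CPM at 24 h, 10.2, 9.73 and 11.6 CPM at 48 h and 18.4, 24.4 and 20.01 CPM at 96 h (0.99 from 48 to 96 h, SE 0.245, edgeR adjusted p = 0.00516), and its gene overlaps AC079447.1 and AC092587.1 on the same strand.

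Other nuclear genes of the mitochondrial translation apparatus were lower in most cases at 24 and 48 h as well. Of the 5 mitoribosome subunits with other names, DAP3, PTCD3, CHCHD1, AURKAIP1 and GADD45GIP1, 4 were lower at 24 h, 5 at 48 h and 0 at 96 h, and none was higher, with medians of -0.43, -0.28 and 0.01. GADD45GIP1 was at -0.53 and AURKAIP1 at -0.49 at 24 h, and DAP3, a GTP-binding protein of the small subunit, at -0.31 at both earlier times. Of 30 tested factors for mitoribosome assembly and modification of its ribosomal RNA, 21 were lower at 24 h, 22 at 48 h and 2 at 96 h, and none was higher, with medians of -0.38, -0.35 and -0.11. C1QBP, a matrix protein that binds RNA, was at -0.77, -0.74 and -0.45 at the 3 times, and the ribosomal RNA methyltransferase gene MRM3 at -0.67, -0.68 and -0.19. The other factor lower at 96 h was METTL17 (-0.29), which did not pass at 24 h (-0.04) or 48 h (-0.06). The background shares of lower genes were those given above.

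Of 16 mitochondrial translation factors, 11 were lower at 24 h, 11 at 48 h and 5 at 96 h, and none was higher, with medians of -0.39, -0.43 and -0.17. The elongation factor gene TUFM was at -0.58 and -0.57 at 24 and 48 h, the initiation factor gene MTIF2 at -0.63, -0.58 and -0.29 at the 3 times, and the ribosome recycling factor gene MRRF at -0.46, -0.48 and -0.30. LRPPRC, which stabilises mitochondrial messenger RNA, was at -0.67 at 48 h and -0.34 at 96 h, and its partner gene SLIRP at -0.74 at 24 h. Of 12 genes for mitochondrial transcription and RNA processing, 9 were lower at 24 h, 10 at 48 h and 3 at 96 h, and none was higher, with medians of -0.42, -0.44 and -0.21. TFAM, which packages and transcribes mitochondrial DNA, was at -0.63, -0.42 and -0.35, TRMT10C of the tRNA-processing enzyme at -0.70, -0.62 and -0.27, and the transcription factor gene TFB2M at -0.68 and -0.80 at 24 and 48 h.

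Messenger RNAs of the mitochondrial genome, which the mitoribosome translates, were counted as well. Of the 13, 0 were lower and 1 was higher at 24 h, 0 were lower and 3 were higher at 48 h, and 1 was lower and 1 was higher at 96 h, with medians of 0.11, 0.13 and -0.00. Of all genes 5.14%, 14.8% and 5.35% were higher at these times. MT-CYB, of respiratory complex III, was higher at 0.44, 0.45 and 0.58, MT-ATP6 was at 0.32 and MT-ND1 at 0.24 at 48 h, and MT-CO1 was lower at 96 h (-0.36). These RNAs make up most of the mitochondrially encoded share given above.

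Of 9 genes for regulators linked to mitochondrial gene expression, 5 were lower at 24 h, 7 at 48 h and 2 at 96 h. None was higher, and the medians were -0.37, -0.32 and -0.21. MYC was at -1.11, -1.74 and -0.51, and PPARGC1B and PPRC1, coactivators of genes for mitochondria, were at -0.47, -0.90 and -0.44 and at -0.49, -0.63 and -0.21, the last of which did not pass. ESRRA, a nuclear receptor, was at -0.53 and -0.47 at 24 and 48 h. NRF1, the nuclear respiratory factor, was at -0.29 and -0.21 at those times. Over the 9 genes the values ran from -1.74 to 1.00 at 48 h and from -1.64 to -0.01 at 96 h. The 1.00 was of a gene whose value is not given above, and it did not pass.

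The start regions of the members were searched for short letters known from such genes. RefSeq holds 69 of the 78 in its table of promoters on GRCh38.p14, each 300 bases long, from 250 before to 50 after the start, and both strands were searched for CCGGAAGT (ETS core, bound by GABPA), GCGCATGC (NRF1 core), AAGATGGC (YY1 core) and CACGTG (E-box, bound by MYC), none of which contains another. The YY1 core was in 20 members (28.99%), beside 3.03% of 27305 promoters and 3.91% of 15843 promoters of protein-coding genes. In 15 members (21.7%) it lay on the gene's own strand within the 50 bases after the start, as in 2.18% of protein-coding genes, where its letters ATG can also be a start codon. The ETS core was in 11 members (15.9%), beside 4.44% and 6.19%, the NRF1 core in 6 (8.70%), beside 3.27% and 4.26%, and the E-box in 6 (8.70%), beside 7.43% and 8.88%. None of the 4 was in 39 members (56.5%), beside 83.8% and 79.6%.

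At 48 h, 17 of the 19 tested members with the YY1 core were lower (median log2 fold change -0.40), beside 38 of the 48 without it (-0.32). Of those with the ETS core 8 of 11 were lower (-0.38), beside 47 of 56 without it (-0.36). Of those with the NRF1 core 6 of 6 were lower (-0.31), beside 49 of 61 without it (-0.37), and of those with the E-box 5 of 5 (-0.30), beside 50 of 62 (-0.38). At 24 h, 16 of 19 members with the YY1 core were lower, beside 40 of 48 without it. At 96 h the counts were 0 of 19 and 7 of 48. With and without the ETS core they were 9 of 11 and 47 of 56 at 24 h, then 1 of 11 and 6 of 56. For the NRF1 core they were 6 of 6 and 50 of 61, then 0 of 6 and 7 of 61. For the E-box they were 5 of 5 and 51 of 62, then 0 of 5 and 7 of 62. These are descriptions, and a match is neither a site shown to be bound nor a cause. The sequences below show the start regions of members with and without matches, each 5′ to 3′ on the gene's strand with matches in capitals. They are some of the furthest falls (MRPS18B at 24 h, and MRPS34, MRPL3 and MRPL12 at 48 h), the member higher at 96 h (MRPL55), and MRPL42. They lie at chr6:30617590-30617889 (plus), chr16:1773085-1773384 (minus), chr3:131502922-131503221 (minus), chr17:81703117-81703416 (plus), chr1:228109250-228109549 (minus) and chr12:93467264-93467563 (plus).
MRPS18B: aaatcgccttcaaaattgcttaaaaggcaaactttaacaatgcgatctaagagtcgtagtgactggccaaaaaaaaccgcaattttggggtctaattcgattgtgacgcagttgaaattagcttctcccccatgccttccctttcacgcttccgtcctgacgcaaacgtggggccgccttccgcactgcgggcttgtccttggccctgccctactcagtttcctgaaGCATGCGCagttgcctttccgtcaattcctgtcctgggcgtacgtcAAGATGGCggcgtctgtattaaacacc
MRPS34: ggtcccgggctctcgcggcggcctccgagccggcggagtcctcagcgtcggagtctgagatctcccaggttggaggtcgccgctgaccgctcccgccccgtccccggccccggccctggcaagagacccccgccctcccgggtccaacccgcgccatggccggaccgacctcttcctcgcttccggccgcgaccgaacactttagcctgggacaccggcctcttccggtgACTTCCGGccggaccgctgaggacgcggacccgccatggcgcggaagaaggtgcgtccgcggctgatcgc
MRPL3: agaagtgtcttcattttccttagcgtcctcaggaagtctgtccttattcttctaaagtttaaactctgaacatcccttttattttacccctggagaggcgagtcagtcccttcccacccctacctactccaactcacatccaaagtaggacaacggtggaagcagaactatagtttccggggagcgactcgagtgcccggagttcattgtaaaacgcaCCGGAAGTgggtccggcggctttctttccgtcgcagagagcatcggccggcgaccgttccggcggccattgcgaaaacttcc
MRPL12: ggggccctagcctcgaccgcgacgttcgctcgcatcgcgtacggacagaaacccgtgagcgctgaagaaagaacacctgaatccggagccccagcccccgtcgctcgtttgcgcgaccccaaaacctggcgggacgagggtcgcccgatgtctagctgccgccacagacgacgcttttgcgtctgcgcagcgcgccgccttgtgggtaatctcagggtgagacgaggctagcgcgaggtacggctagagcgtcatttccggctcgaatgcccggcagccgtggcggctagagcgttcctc
MRPL55: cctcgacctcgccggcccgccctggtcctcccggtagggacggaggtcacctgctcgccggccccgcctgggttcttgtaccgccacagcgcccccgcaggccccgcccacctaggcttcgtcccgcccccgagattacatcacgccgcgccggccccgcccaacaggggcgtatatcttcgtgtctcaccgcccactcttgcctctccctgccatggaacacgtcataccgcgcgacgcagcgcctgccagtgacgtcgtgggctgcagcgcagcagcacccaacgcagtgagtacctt
MRPL42: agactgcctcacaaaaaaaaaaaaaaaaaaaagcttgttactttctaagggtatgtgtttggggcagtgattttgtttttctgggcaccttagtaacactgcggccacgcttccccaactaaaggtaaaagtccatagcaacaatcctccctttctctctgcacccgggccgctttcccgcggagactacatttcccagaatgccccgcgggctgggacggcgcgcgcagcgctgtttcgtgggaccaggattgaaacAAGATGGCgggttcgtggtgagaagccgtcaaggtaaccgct
MRPS18B has the NRF1 core on the opposite strand 23 bases before the start and the YY1 core 24 bases after it, MRPS34 and MRPL3 have the ETS core 20 bases before it on the opposite strand and 32 bases before it on the gene's strand, and MRPL42 has the YY1 core 9 bases after it. MRPL12 and MRPL55 hold none of the 4 in this window. Nor do MRPL11, MRPL39, MRPL4 and MRPL18, the furthest large subunit falls at 24 h, whose sequences are not shown.

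MRPL42 (ENSG00000198015, chr12:93467488-93516213, plus strand) encodes a mitochondria-specific protein of the large subunit that was earlier assigned to the small one. As a gene it had 22.6 and 24.0 CPM in the libraries labelled knockdown, against 29.9 and 34.7 CPM in WT libraries at 24 h (log2 fold change -0.47, SE 0.124, edgeR adjusted p = 0.0107). At 48 h it had 34.0, 36.4 and 41.3 CPM in KD libraries, against 55.1, 48.7 and 52.002 CPM in WT libraries (-0.48, SE 0.098, edgeR adjusted p = 7.85e-04), and at 96 h 48.5, 42.6 and 38.4 CPM in KD libraries, against 48.9, 58.1 and 48.7 CPM in WT libraries (-0.27, SE 0.097, edgeR adjusted p = 0.0914). KD libraries lay below WT libraries at each time, by a margin that was smallest at 96 h. Without KD replicate 3 of 48 h the 96 h difference passed (-0.27, edgeR adjusted p = 0.0389), as it did without KD replicate 1 of 96 h (-0.36, edgeR adjusted p = 0.0339) and with only protein-coding transcripts summed (-0.32, edgeR adjusted p = 0.0340).

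The table holds 10 MRPL42 transcripts, and 1 of them, MRPL42-202, stood apart at 24 h. MRPL42-202 is a protein-coding transcript of 1983 bases, and its estimated counts were 0 and 0 in the libraries labelled knockdown, against 78 and 78 in WT libraries at 24 h. Against a floor of 3 counts over the 2 libraries labelled knockdown, that is 72.8-fold lower. The floor covers counting error only and not the division of shared reads between transcripts, so 72.8-fold is no lower bound on the change in RNA. At 48 h MRPL42-202 had 248, 290 and 382 counts in KD libraries, against 365, 386 and 510 in WT libraries. At 96 h it had 455, 566 and 389 counts in KD libraries, against 596, 557 and 419 in WT libraries. Its share of the gene's counts was 9.02% ± 1.13 in WT libraries of 24 h (SD, n = 2). At 48 h it was 20.6% ± 4.70 in KD libraries, against 22.9% ± 3.68 in WT libraries (SD, n = 3 each). At 96 h it was 27.6% ± 5.25 in KD libraries, against 21.8% ± 3.22 in WT libraries (SD, n = 3 each). The zero was thus seen in the libraries labelled knockdown of 24 h and in none of the other 14 libraries.

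Relative to the gene's other transcripts MRPL42-202 was lower at 24 h (fitted log2 difference -9.29, which rests on the prior count, gene-level Simes edgeR adjusted p = 3.48e-09), and a limma test of log-ratios with 0.5 counts added passed too (-7.44, limma adjusted p = 8.19e-07). Usage did not pass at 48 h (edgeR adjusted p = 0.297) or 96 h (edgeR adjusted p = 1.00), with MRPL42-202 itself at -0.13 and 0.34. Of 67 members tested for usage at 24 h, MRPL42 alone passed, where 1.56% of all tested genes passed. At 48 h MRPL23, a protein near the tunnel exit, alone passed in edgeR (adjusted p = 7.83e-04), where 4.07% passed, and it did not pass in limma (adjusted p = 0.155) or without WT replicate 2 of 48 h (edgeR adjusted p = 0.141). Without KD replicate 3 of 48 h MRPL23, MRPL48 and MRPS35 passed in edgeR, where 9.40% of all tested genes did. Its transcript MRPL23-202 had 0, 0 and 70 counts in KD libraries, against 137, 447 and 76 in WT libraries of 48 h, so the groups nearly touched. At 96 h no member passed in edgeR or in limma, where 1.53% of all tested genes passed in edgeR.

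The transcript MRPL42-202 differs from the coding transcript MRPL42-206 inside the reading frame by its last splice junction. Both leave the exon before the last at position 93487660 of chromosome 12, and MRPL42-202 enters its last exon at 93501185, which is 9 bases or 3 codons past the entry at 93501176 that MRPL42-206 and 5 other transcripts use. MRPL42-202 shares this junction with no other transcript, and its end at 93502652 is also its own. The coding bases around the junction are shown for both, with 30 bases before it and the 9 added bases of MRPL42-206 in capitals (GENCODE 29 on GRCh38, plus strand, chr12:93487631-93487660 joined to chr12:93501185-93501218 or to chr12:93501176-93501218).
MRPL42-202: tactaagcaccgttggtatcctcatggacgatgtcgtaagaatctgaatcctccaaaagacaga
MRPL42-206: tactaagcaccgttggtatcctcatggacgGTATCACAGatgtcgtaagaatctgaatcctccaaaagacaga
All 1983 bases of MRPL42-202 lie within other MRPL42 transcripts, so reads that do not cross this junction fit several transcripts and are divided between them by estimate. Whether the 0 at 24 h came from that division was not tested. In WT libraries MRPL42-208 held 42.3% ± 3.05, 29.2% ± 1.40 and 30.7% ± 2.50 of the counts at 24, 48 and 96 h (SD, n = 2, 3 and 3), and usage was not tested between times. Without MRPL42-202 the gene at 24 h did not pass (-0.34, SE 0.139, edgeR adjusted p = 0.111), with 22.6 and 24.0 CPM in the libraries labelled knockdown, against 26.9 and 31.8 CPM in WT libraries, and at 96 h it passed (-0.38, SE 0.110, edgeR adjusted p = 0.0320). The 24 h call of the gene was also lost under total-count scaling and without KD replicate 1, KD replicate 2 or WT replicate 2 of 24 h, and in the test against a 1.2-fold change, with edgeR adjusted p between 0.0895 and 0.172.

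**Figure D5:**
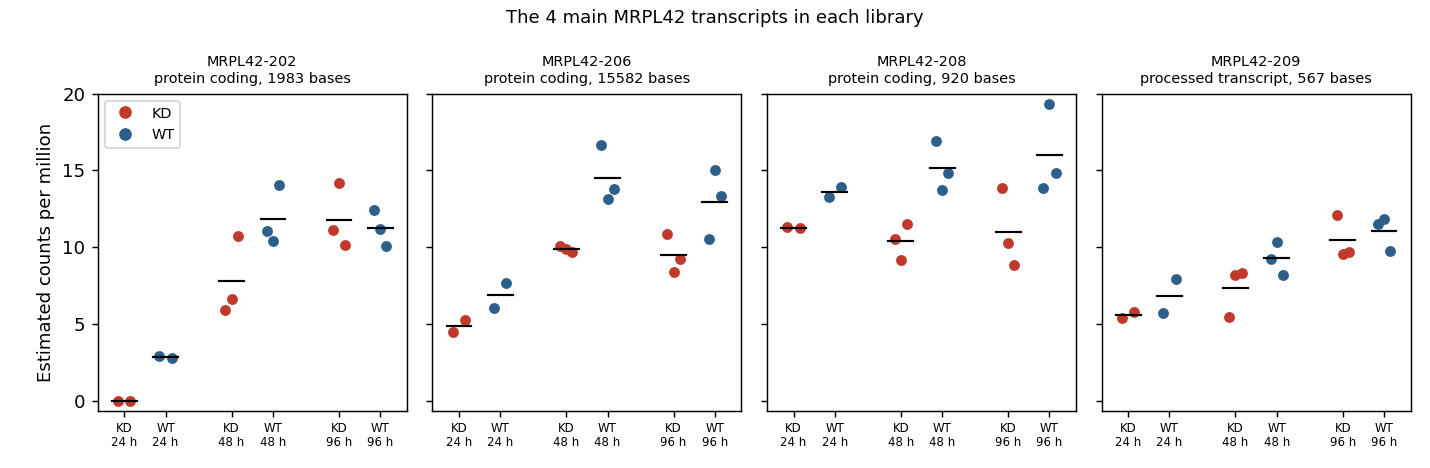
The plot of MRPL42 transcripts by library shows estimated counts in CPM of the 4 main transcripts on the vertical axis, 1 point per library with a line at the group mean, and KD left of WT at each time. MRPL42-202 lies at 0 in both libraries labelled knockdown of 24 h, while MRPL42-206, MRPL42-208 and MRPL42-209 were detected in all 16 libraries.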

How the data were processed

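The estimated counts per transcript were made by the authors and deposited as 1 table of 166096 transcripts in 16 libraries. Per the submitters' processing notes kallisto, DESeq2 and hg19 were used, with versions and roles not given in the sources used here. Transcript IDs of 156584 rows matched GENCODE 29, and the other 9512 rows, with 2.75% to 3.40% of the counts, were left out. Coordinates are those of GENCODE 29 on GRCh38, not hg19. Gene sums were rounded and tested with edgeR 4.0.16 (filterByExpr, TMM scaling, robust quasi-likelihood F-test on 6 group means, 10 residual degrees of freedom, Benjamini-Hochberg adjusted p under 0.05) in R 4.3.3. Library totals ran from 28391784 to 51853876 estimated counts, and a floor of 3 counts covers counting error only. For transcript usage, diffSpliceDGE of edgeR was run and, as an alternative, limma 3.58.1 on log-ratios. On simulated data the edgeR usage test made many false calls, so a usage call is relied on where both pass. The limma test was simulated for the 48 h comparison only, so its false calls at 24 h were not measured. The simulation did not include the division of shared reads between transcripts. TPM was computed from transcript lengths. DESeq2 1.42.0 and other scalings, filters and libraries left out were alternatives.

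Members and gene lists were chosen with earlier results of these data known. Values per library are given for MRPL42, the 5 members with the largest log2 fold change among those that passed in each direction of a KD and WT comparison, the 3 for each other difference, and the highest and lowest members by TPM. From the other lists up to 4 genes with the lowest p at each time are given. Any other gene with values was chosen after its values were seen. Samples were grouped by their labels.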

Additional observations from a re-analysis of the deposited data

Results flagged for a closer look

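The KD over WT effect differed among the 3 times in 22 members, where 9.44% of all tested genes passed (edgeR interaction tests, adjusted p under 0.05). Between 48 h and 96 h it was higher in 23 members and lower in 0, where 6.74% of all tested genes were higher and 4.2% lower. As differences between times, both are listed for a closer look. In single genes the 96 h minus 48 h difference on the log2 scale was 0.64 for MRPL55, 0.63 for MRPS34 and 0.62 for MRPL12. The KD libraries of 96 h also had more NORAD than those of 48 h (39.9% and 13.6% of WT), and WT levels of 68 members were lower at 96 h than at 48 h (22.7% of all tested genes were lower). What each of these has to do with the difference was not tested.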

How the results depend on the processing

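Members lower at 24 h numbered 65, and 21 in the test against a 1.2-fold change, 27 under total-count, 42 under upper-quartile and 40 under abundance-dependent scaling, with 31 to 67 when 1 library was left out. Of all genes 12.4% were lower at 24 h in the main fit, 3.34% in the test against a 1.2-fold change, and 4.08%, 7.51% and 6.997% under these scalings. At 48 h the count was 63 (18.5% of all genes lower), with 28 in the test against a 1.2-fold change (6.80%). It was 40 under abundance-dependent scaling (14.2%) and 51 to 68 with 1 library left out (13.9% to 23.9%). At 96 h it was 10 (5.15% of all genes lower), with 0 in the test against a 1.2-fold change (1.24%), where 1 higher member became 0. It was 18 with only the libraries compared (8.66%) and 2 to 18 with 1 library left out (2.96% to 7.61%), where higher members numbered 0 to 1.

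The count of members that differed among the times was 22 (9.44% of all genes), and 35 in DESeq2 (12.9%). It was 8 under total-count and under abundance-dependent scaling (9.18% and 7.99%), and 10 to 45 with 1 library left out (5.31% to 25.4%). That for 96 h against 48 h was 23, all higher at 96 h (6.74% of all genes higher), and 37 in DESeq2 (9.13%). It was 5 in the test against a 1.2-fold change (1.73%), 12 under total-count (3.18%) and 13 under abundance-dependent scaling (4.31%). With 1 library left out it was 15 to 39 (3.86% to 15.7%). In WT libraries the member lower at 48 h against 24 h numbered 1, and 0 in the test against a 1.2-fold change and with no filter, 2 under the 3 other scalings (total counts, upper quartile and abundance-dependent), with a filter of 1 CPM, with only the libraries compared and with only protein-coding transcripts, and 0 to 2 with 1 library left out. Higher members there numbered 48 to 59 with 1 library left out (15.4% to 25.3% of all genes higher). In the same fits lower members at 96 h against 48 h numbered 65 to 70 (19.1% to 25.4% of all genes lower). The share of all genes lower at 48 h against 24 h was 22.1% in the main fit. It ran from 14.1% (no filter) to 28.5% (filter of 1 CPM), and from 15.7% to 24.6% with 1 library left out.

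NORAD at 24 h was higher under total-count scaling (0.34, edgeR adjusted p = 0.0467) and abundance-dependent scaling (0.31, edgeR adjusted p = 0.0446), and ran from -0.017 (without KD replicate 1) to 0.32 with 1 library left out, from -2.99 to -2.76 at 48 h and from -1.40 to -1.26 at 96 h. With 1 library of 48 or 96 h left out, members with changed usage numbered 1 to 2 at 24 h (1.24% to 1.88% of all genes). They numbered 0 to 3 at 48 h (2.65% to 9.40%) and 0 to 2 at 96 h (0.863% to 1.70%). The 1 at 48 h (4.07%) was 0 in limma with either pseudocount (0.676% and 0.703%). It was also 0 with transcripts of at least 10% of the gene (0.525%) and with only the libraries compared (1.31%). The MRPL42 transcript with the largest change was at -9.29 at 24 h (-9.44 to -9.19 with 1 library left out). At 48 h it was at -4.85 (-5.47 to 0.52) and at 96 h at -3.88 (-4.53 to 0.31). At both of these times that transcript was MRPL42-201. Its only counts at 48 h were 14 in WT replicate 2, and its only counts at 96 h were 7 in WT replicate 3. The sign reversed without these libraries, to 0.52 at 48 h and 0.31 at 96 h. The cause of the other changes was not tested.

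Same-numbered libraries did not deviate together (r from -0.26 to 0.06). With 2 libraries a group at 24 h, r there can differ in sign only. Whether the libraries were prepared as pairs is not given by the labels and cannot be settled by these values. With the replicate number as a block, lower members numbered 58, 57 and 5 at the 3 times, beside 9.43%, 15.8% and 3.63% of all genes. Members that differed among times numbered 9 (4.54% of all genes), and those between 96 h and 48 h 15, all higher (3.73%). MRPL42 usage at 24 h was -9.29 in that fit (edgeR adjusted p = 1.24e-07). Over 30 gene results under all alternatives, 743 of 775 values kept their direction and their side of the threshold, 28 no longer passed, 4 newly passed and 0 reversed. Most of these results were chosen as the largest that passed. Most alternatives left out 1 library, often one outside the comparison. Most values thus had little room to change, and the total does not measure how stable the results are. At 96 h MRPS31 lost its call in 6 alternatives and MRPL39 in 4.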
